A study of Mus musculus with 30 samples.

Results

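The genes described here are 39 genes of mitosis, which encode the kinases and cyclins that start it, the checkpoint and kinetochore proteins that watch over it, the kinesins that move spindle and chromosomes, and the proteins that divide the cell. They were listed by name for these functions, not by a measured value, but with earlier results of these data known. All 39 were found among the 46078 genes of the count table. Colon RNA was sequenced from 6 C57BL/6J mice in each of 5 groups, which were females and males fed control diet (CD, 10% of the energy from fat), females and males fed high-fat diet (HFD, 60%), and males fed HFD and given estradiol (E2, 0.5 mg per kg). The diets began at an age of 5 to 6 weeks and lasted for 13 weeks, with 9 intraperitoneal injections in the last 3 weeks, of vehicle in the first 4 groups and of E2 in the last. The females kept their ovaries, E2 was given only to HFD males among the mice analysed here, and each mouse gave 1 library.

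Cells enter mitosis when the kinase Cdk1, bound to cyclin B, is activated. Microtubules then form a spindle, kinesins push its poles apart and carry chromosomes, and a checkpoint delays anaphase until every kinetochore is attached. The anaphase-promoting complex with its activator Cdc20 then marks cyclin B and securin for degradation, the chromatids separate and the cell divides. In the colon, dividing cells lie mainly in the lower part of the crypts. Genes of this process are transcribed together late in the cell cycle, through complexes that bind the cell cycle genes homology region (CHR) and the CCAAT box of their promoters.

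The libraries held from 8667177 to 17243712 counts on genes, and no member had fewer than 21 counts in any library. Levels are given as TPM, which are scaled to gene length and can be compared between genes. The mean over the 30 libraries was highest for Mki67 (41.9 TPM) and Top2a (29.8 TPM) and lowest for Espl1 (1.11 TPM). The tissue label was met by 12 epithelial markers, which summed to between 4159.9 and 6522 TPM in every library, and by 12 smooth muscle markers, which summed to between 3482 and 8799.5 TPM. Genes of stratified squamous epithelium were present in replicates 1, 3, 4 and 5 of the HFD females and in replicates 2 and 4 of the HFD males, with sums over 19 genes of up to 1896 TPM. In the CD and E2 groups the highest sum was 14.9 TPM. In RNA of tissue, fewer dividing cells and less RNA of these genes per dividing cell cannot be told apart.

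RefSeq promoter windows, from 250 bases before to 50 bases after the start of transcription on GRCm38.p6, were matched by symbol to 35 of the 39 members, with 37 windows in all. Tpx2, Aurkb, Kif20a and Ccna2 were not matched. TTTGAA, the core of the CHR, was searched on both strands and was found for 27 of the 35 genes, against 17.9% of all 32851 windows of this length. CCAAT, searched likewise, was found for 26 of the 35 genes, against 37.4% of all windows. Both were present for 23 of the 35 genes, against 6.95% of all windows, and no match of one overlapped a match of the other. Anln, Kif15, Kif2c and Ndc80 had TTTGAA alone, Bub1, Ccnb1 and Cenpe had CCAAT alone, and Birc5, Knstrn, Melk, Nuf2 and Nusap1 had neither. The median position was -16.5 bases from the start of transcription for TTTGAA and -69.5 bases for CCAAT. The RefSeq starts of transcription of Kif14 and Kif2c lie 1505 and 3867 bases from the gene start in the deposited tables, and the others within 328 bases of it. A match shows only that the letters are there, and the lack of one only that these exact letters are not.

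The windows of the 6 members that passed the adjusted threshold in a comparison below are shown because they passed the strictest of the thresholds used. They are written 5′ to 3′ on the strand of the gene, with matches to TTTGAA or CCAAT on either strand in capitals.
Kif11, chr19:37376132-37376431, plus strand: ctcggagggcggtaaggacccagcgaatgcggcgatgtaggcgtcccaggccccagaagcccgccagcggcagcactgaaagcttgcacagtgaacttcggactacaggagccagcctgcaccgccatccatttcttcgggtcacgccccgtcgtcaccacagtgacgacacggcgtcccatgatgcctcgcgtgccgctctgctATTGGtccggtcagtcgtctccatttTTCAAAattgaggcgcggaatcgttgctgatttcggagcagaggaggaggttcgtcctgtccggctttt
Racgap1, chr15:99651607-99651906, minus strand: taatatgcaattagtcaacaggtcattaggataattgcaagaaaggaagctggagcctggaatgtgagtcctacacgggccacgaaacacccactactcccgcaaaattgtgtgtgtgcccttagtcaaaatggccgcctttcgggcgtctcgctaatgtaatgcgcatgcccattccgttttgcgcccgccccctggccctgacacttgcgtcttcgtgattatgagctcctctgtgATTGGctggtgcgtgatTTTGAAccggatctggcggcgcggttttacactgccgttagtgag
Ckap2, chr8:22185770-22186069, minus strand: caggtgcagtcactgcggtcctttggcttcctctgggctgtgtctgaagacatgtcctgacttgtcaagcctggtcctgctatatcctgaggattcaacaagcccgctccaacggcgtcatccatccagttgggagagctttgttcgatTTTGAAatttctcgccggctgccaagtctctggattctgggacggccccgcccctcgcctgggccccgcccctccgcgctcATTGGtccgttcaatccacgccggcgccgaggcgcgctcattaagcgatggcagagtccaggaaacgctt
Anln, chr9:22389157-22389456, minus strand: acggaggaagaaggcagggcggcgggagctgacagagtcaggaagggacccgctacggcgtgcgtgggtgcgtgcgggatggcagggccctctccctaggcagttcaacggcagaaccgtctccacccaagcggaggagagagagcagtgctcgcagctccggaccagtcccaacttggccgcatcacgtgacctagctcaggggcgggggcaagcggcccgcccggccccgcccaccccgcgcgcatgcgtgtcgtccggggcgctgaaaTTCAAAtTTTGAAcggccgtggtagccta
Ccnb1, chr13:100786437-100786736, minus strand: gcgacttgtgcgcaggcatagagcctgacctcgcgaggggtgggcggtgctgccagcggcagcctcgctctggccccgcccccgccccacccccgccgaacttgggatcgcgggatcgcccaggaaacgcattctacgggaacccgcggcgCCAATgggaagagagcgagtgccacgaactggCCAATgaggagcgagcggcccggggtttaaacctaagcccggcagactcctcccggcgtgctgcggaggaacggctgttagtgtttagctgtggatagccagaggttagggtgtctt
Knstrn, chr2:118813753-118814052, plus strand: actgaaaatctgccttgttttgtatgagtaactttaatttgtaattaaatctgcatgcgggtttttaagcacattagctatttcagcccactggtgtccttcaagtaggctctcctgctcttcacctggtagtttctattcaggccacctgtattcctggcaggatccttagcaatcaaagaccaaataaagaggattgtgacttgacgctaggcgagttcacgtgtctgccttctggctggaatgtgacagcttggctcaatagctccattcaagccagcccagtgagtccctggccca
Kif11 and Racgap1 hold a CCAAT box followed downstream by TTTGAA, and in Ckap2 the order is the other way round. Anln holds 2 neighbouring matches to TTTGAA just after its start, Ccnb1 holds a pair of CCAAT boxes, and Knstrn holds no exact match to either.

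**Figure D1:**
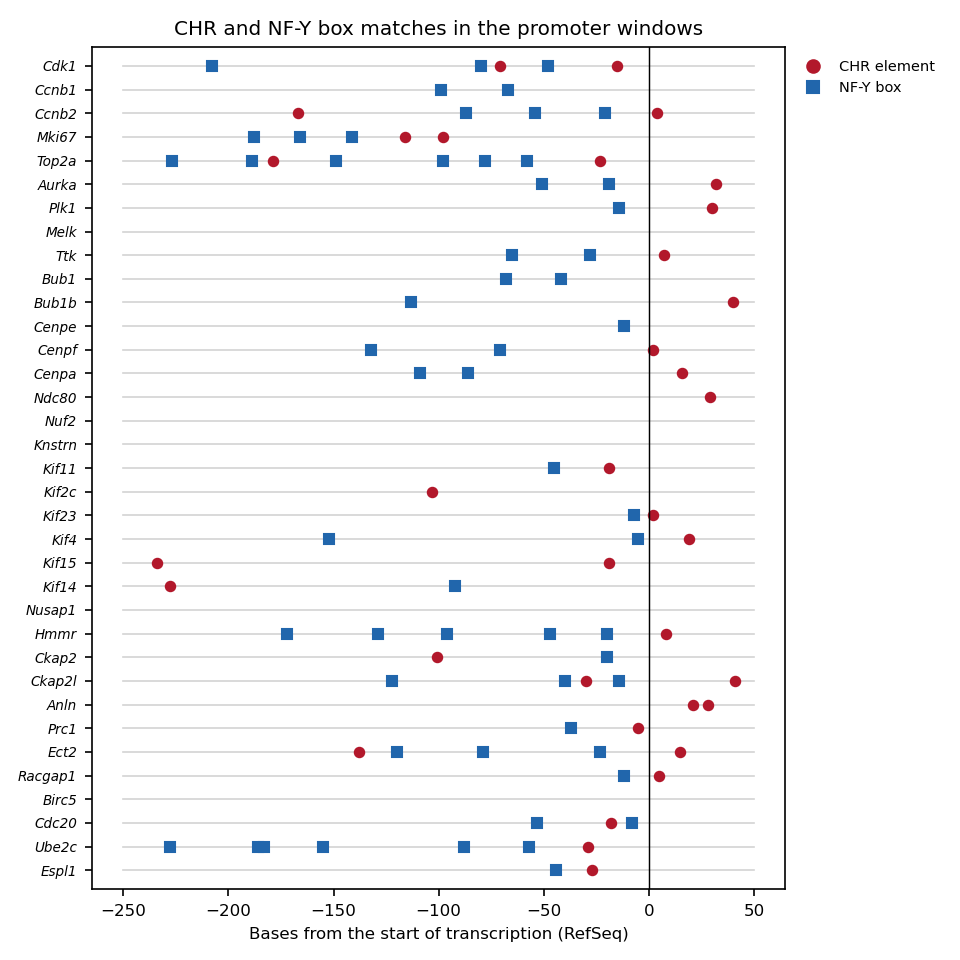
Positions of exact matches to TTTGAA (CHR element) and CCAAT (NF-Y box, the CCAAT box) in the promoter windows of 35 members, in bases from the RefSeq start of transcription at 0, with both strands searched. The median position is -16.5 bases for TTTGAA and -69.5 bases for CCAAT, and 5 genes have no match to either.

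The summed level of the 39 genes ranged from 237 to 536 TPM (median 324) in HFD males and from 120.3 to 223 TPM (median 186) in HFD males given E2. Every E2 library thus lay below every HFD male library. The sum ranged from 238 to 643 TPM (median 340.2) in CD males, from 212 to 366 TPM (median 276) in CD females and from 174 to 619 TPM (median 249.8) in HFD females. The 4 groups given vehicle overlapped one another, and single libraries stood out within them. Replicate 4 of the CD males was the highest of its group for 34 members in log2 CPM, replicate 2 of the HFD males for 36 and replicate 3 of the HFD females for 39. Replicate 4 of the E2 group was the lowest of its group for 30 members. Of the 6 libraries with squamous epithelium genes, replicate 2 of the HFD males and replicate 3 of the HFD females had mean deviations of 0.67 and 1.15 log2 units from the group means of the members. The other 4 deviated by between -0.56 and 0.079, and the part of squamous epithelium in these levels of single libraries was not tested. Comparisons with the squamous markers as a covariate, or without these libraries, are given below.

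**Figure D2:**
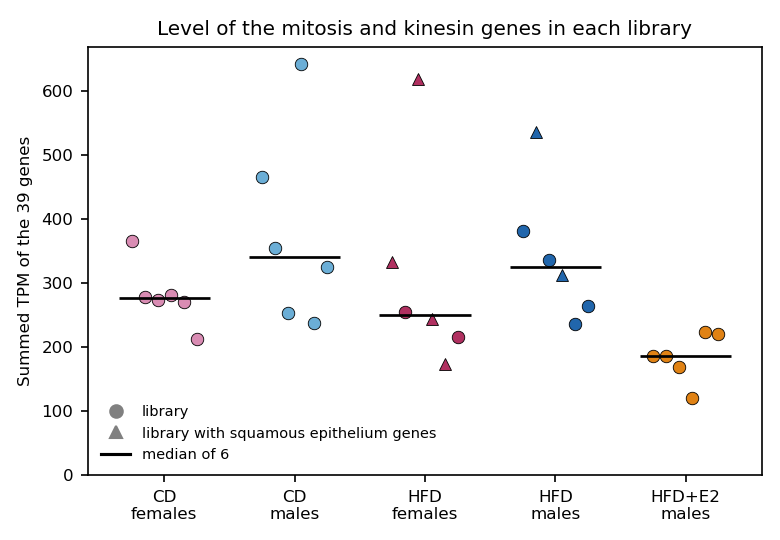
Summed TPM of the 39 mitosis and kinesin genes in each library (points, 6 per group), with the group medians as lines and triangles for the 6 HFD libraries with squamous epithelium genes. The E2 libraries lie between 120 and 223 TPM, below all HFD male libraries.

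The E2 group had the lowest median TPM of the 5 groups for 38 of the 39 members, and the lowest median log2 CPM for 36. The highest median TPM was that of the CD males for 28 members, of the HFD males for 10 and of the CD females for 1. Among the mice of a group, the members varied together. Over the 741 pairs of members, the correlation of deviations from the group means across 30 libraries had a median of 0.78 and a range from 0.33 to 0.95, so that the members are not independent measurements. Described in the same way, the mean of the members followed that of 55 other mitotic genes (r = 0.96), and it was 0.41 with the squamous genes, 0.099 with B cell markers and -0.32 with epithelial markers, all of which share the libraries and their depth.

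**Figure D3:**
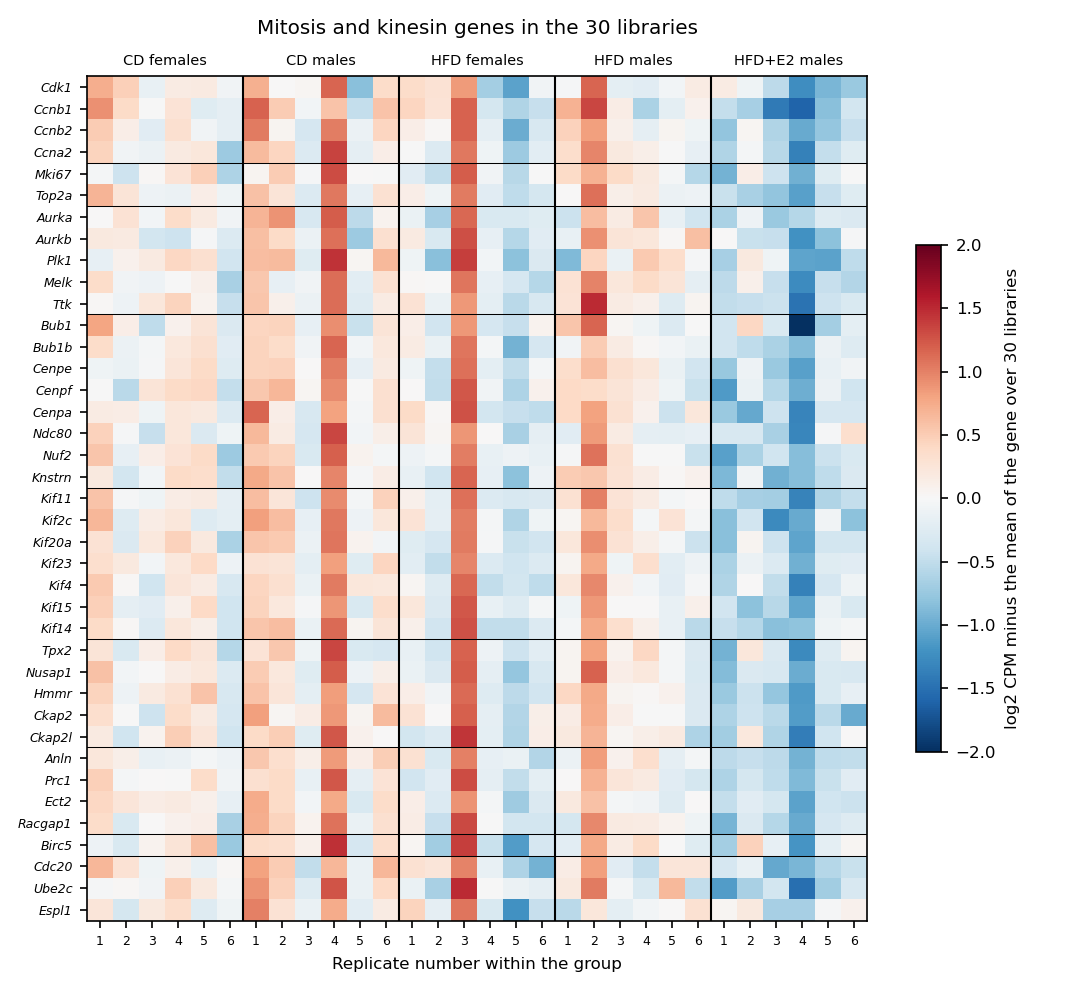
Log2 CPM of the 39 members (rows, ordered by role) in the 30 libraries (columns, by group), relative to the mean of each gene. Low values fill the E2 columns, and replicate 4 of the CD males, replicate 3 of the HFD females and replicate 2 of the HFD males are high for nearly all members.

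To ask whether E2 changed these genes in the colon of HFD males, the 6 libraries with E2 were compared with the 6 with vehicle by edgeR's quasi-likelihood test. At the threshold of the study, read here as an unadjusted p under 0.05 with a log2 change of more than 0.4 up or down, 36 of the 39 members were lower with E2 and none was higher, whereas 3.24% of all 15010 genes tested were lower and 2.63% higher. All 39 log2 fold changes lay below 0, from -1.26 (Ccnb1) to -0.11 (Espl1), with a median of -0.72 against 0.0011 for all genes. With the Benjamini-Hochberg adjusted p of edgeR, 0 members passed, against 0.00666% of all genes, and the smallest adjusted p was 0.148 for Kif11. The unadjusted p of edgeR was under 0.05 for 36 members and for 1535 of the 15010 genes, and that of DESeq2 for 36 members. DESeq2 called 9 members with its adjusted p (Ccnb1, Top2a, Melk, Cenpa, Knstrn, Kif11, Kif2c, Ckap2 and Anln). By that rule 0.12% of the 27435 genes with a DESeq2 p-value were lower. This set lacks the filter used for edgeR, and DESeq2 can leave genes with low mean counts out of its adjustment. The share over the genes it adjusted can thus be larger, and the shares are not alike. In log2 CPM, every E2 library lay below every vehicle library for 7 members (Top2a, Ttk, Knstrn, Kif11, Kif2c, Ckap2 and Anln), as for 0.266% of all genes. In TPM this held for 11 members, as for 0.366% of all genes. Top2a, Kif11, Ckap2 and Anln were apart in both scales.

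The count of 36 was 27 without replicate 2 of the HFD males, when 1.99% of all genes were lower, and 26 without the 2 HFD males that held squamous epithelium genes, when 1.76% of all genes were lower. With the mean level of the epithelial markers as a covariate it was 20, when 1.11% of all genes were lower. Over the 26 settings tried, 19 members passed in all, Espl1 in none, and Birc5 and Ndc80 in 3 each, and the log2 fold change stayed below 0 for all 39.

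**Figure D4:**
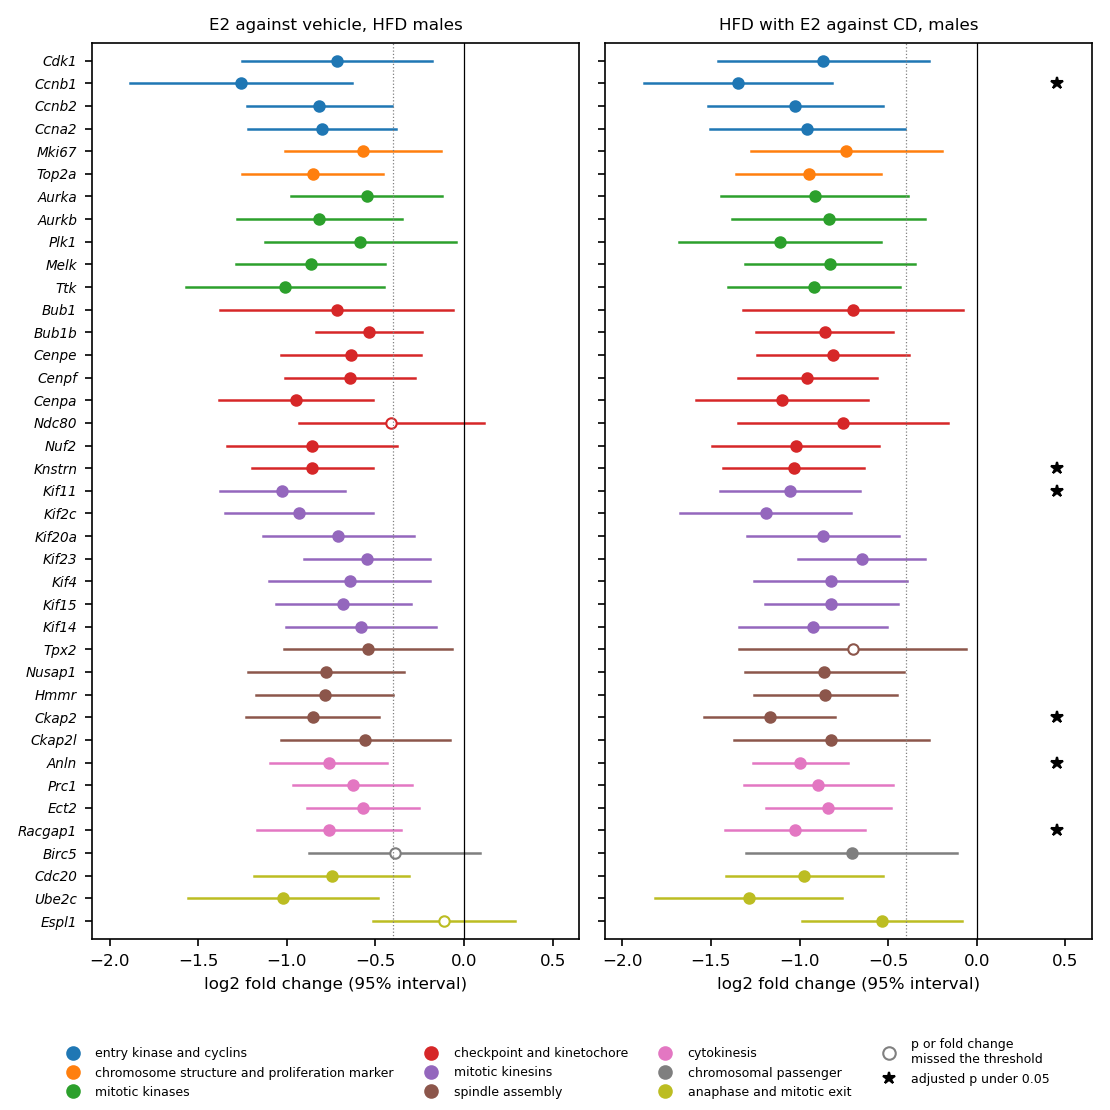
Log2 fold changes of the 39 members with 95% intervals, for HFD males with E2 against HFD males with vehicle (left) and against CD males with vehicle (right). Open points missed the threshold of the study, stars mark an adjusted p under 0.05 and the dotted line marks -0.4. The panels share the E2 libraries, and all points lie below 0 in both.

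In what follows, ranges are in TPM, fold changes are from the counts with their standard error (SE), "fell" refers to the threshold of the study, and the adjusted p is that of edgeR over all genes, which no member passed in this comparison. All 4 genes of mitotic entry fell. Cdk1, the catalytic partner of the mitotic cyclins, ranged from 4.05 to 11.7 TPM (median 5.05) in HFD males and from 2.02 to 6.07 TPM (median 3.78) with E2 (log2 fold change -0.72, SE 0.27, adjusted p = 0.461). Ccnb1, the gene of cyclin B1, ranged from 4.23 to 13.1 TPM (median 5.85) and from 1.36 to 5.12 TPM (median 2.72) (log2 fold change -1.26, SE 0.32, adjusted p = 0.421). Both overlapped between the groups, Ccnb1 through a single E2 library and Cdk1 through several libraries of either group. Ccna2, the gene of cyclin A2, which acts in S phase and early mitosis, ranged from 11.2 to 28.1 TPM (median 16.2) and from 5.4 to 10.7 TPM (median 9.78) (log2 fold change -0.8, SE 0.21, adjusted p = 0.454). Ccnb2, the gene of cyclin B2, had medians of 8.99 and 5.05 TPM (log2 fold change -0.82, SE 0.21, adjusted p = 0.421). Ccna2 and Ccnb2 were apart in TPM and overlapped in log2 CPM.

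Mki67 encodes Ki-67, which coats mitotic chromosomes and is the usual marker of proliferating cells. It ranged from 28.7 to 67.3 TPM (median 50.1) in HFD males and from 19.2 to 36.6 TPM (median 29.6) with E2 (log2 fold change -0.57, SE 0.22, adjusted p = 0.461). The groups overlapped, since the 2 lowest HFD males lay within the range of the E2 libraries. Top2a, a topoisomerase that untangles sister chromatids, ranged from 23.1 to 59.2 TPM (median 30.6) and from 13.3 to 22.6 TPM (median 18.1) (log2 fold change -0.85, SE 0.2, adjusted p = 0.389). Its groups were apart, by a narrow gap in TPM.

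All 5 mitotic kinases fell. Aurka, a kinase of the spindle poles, ranged from 2.96 to 7.63 TPM (median 5.43) in HFD males and from 2.1 to 5.24 TPM (median 2.84) with E2 (log2 fold change -0.55, SE 0.22, adjusted p = 0.461). Aurkb, the kinase of the chromosomal passenger complex, ranged from 3.63 to 9.95 TPM (median 6.1) and from 2.53 to 4.96 TPM (median 3.51) (log2 fold change -0.82, SE 0.24, adjusted p = 0.454). Plk1, a kinase that acts from entry to cytokinesis, ranged from 1.32 to 4.05 TPM (median 2.87) and from 0.873 to 1.85 TPM (median 1.53) (log2 fold change -0.58, SE 0.27, adjusted p = 0.485). In all 3 the groups overlapped, and Plk1 had the largest p of the 5 kinases. Melk, a kinase found in dividing cells, ranged from 4.36 to 10.8 TPM (median 6.02) and from 1.22 to 3.66 TPM (median 3.22) (log2 fold change -0.87, SE 0.21, adjusted p = 0.389). Ttk, the kinase that starts checkpoint signalling at kinetochores, ranged from 1.56 to 8.66 TPM (median 3.24) and from 0.116 to 2.0 TPM (median 1.62) (log2 fold change -1.01, SE 0.28, adjusted p = 0.454). Melk was apart in TPM alone and Ttk in log2 CPM alone.

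Of the 8 checkpoint and kinetochore genes, 7 fell. Bub1, a checkpoint kinase, ranged from 2.6 to 8.0 TPM (median 5.29) in HFD males and from 0.234 to 4.12 TPM (median 2.57) with E2 (log2 fold change -0.72, SE 0.34, adjusted p = 0.487). Bub1b, the gene of the checkpoint protein BubR1, ranged from 6.37 to 9.93 TPM (median 8.16) and from 3.0 to 7.33 TPM (median 4.52) (log2 fold change -0.54, SE 0.15, adjusted p = 0.454). Both overlapped, and Bub1 had the largest and Bub1b the smallest standard error of the 39 members. Cenpe, a kinesin of the kinetochore, ranged from 5.17 to 10.7 TPM (median 8.35) and from 2.85 to 6.93 TPM (median 4.34) (log2 fold change -0.64, SE 0.2, adjusted p = 0.454). Cenpf, a large protein of the outer kinetochore, ranged from 5.23 to 10.4 TPM (median 8.19) and from 2.89 to 6.84 TPM (median 3.82) (log2 fold change -0.64, SE 0.19, adjusted p = 0.454). Cenpa, the histone variant of centromeres, ranged from 3.23 to 10.4 TPM (median 5.56) and from 1.47 to 3.56 TPM (median 2.69) (log2 fold change -0.95, SE 0.22, adjusted p = 0.389). These 3 overlapped as well. Knstrn, the gene of kinastrin, a spindle and kinetochore protein, ranged from 4.6 to 14.9 TPM (median 5.95) and from 3.42 to 5.05 TPM (median 4.14) (log2 fold change -0.86, SE 0.17, adjusted p = 0.356). It was apart in log2 CPM alone, and replicate 1 of the HFD males stood far above the rest. Nuf2 and Ndc80 encode partners in the complex that grips microtubules. Nuf2 fell (log2 fold change -0.86, SE 0.24, adjusted p = 0.454), and Ndc80 did not pass (log2 fold change -0.41, SE 0.27, adjusted p = 0.554, 95% interval -0.93 to 0.11).

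All 7 mitotic kinesins fell. Kif11 encodes Eg5, the motor that pushes the spindle poles apart. It ranged from 6.58 to 16.8 TPM (median 9.53) in HFD males and from 2.83 to 6.01 TPM (median 4.76) with E2 (log2 fold change -1.03, SE 0.18, adjusted p = 0.148), was apart in both scales and had the smallest p of the members. Kif20a, a motor of cytokinesis, ranged from 4.54 to 11.2 TPM (median 6.82) and from 2.38 to 4.37 TPM (median 3.81) (log2 fold change -0.71, SE 0.22, adjusted p = 0.454). Kif23, the motor subunit of centralspindlin, ranged from 4.79 to 12.3 TPM (median 7.59) and from 3.11 to 5.89 TPM (median 4.75) (log2 fold change -0.54, SE 0.18, adjusted p = 0.455). Kif4, a chromokinesin, ranged from 2.18 to 7.57 TPM (median 4.01) and from 1.04 to 3.42 TPM (median 2.63) (log2 fold change -0.65, SE 0.23, adjusted p = 0.456). Kif20a was apart in TPM alone, and Kif23 and Kif4 overlapped. The other motors were Kif2c, which takes microtubules apart (log2 fold change -0.93, SE 0.21, adjusted p = 0.389), Kif15, which works beside Kif11 (log2 fold change -0.68, SE 0.19, adjusted p = 0.454), and Kif14, which acts in cytokinesis (log2 fold change -0.58, SE 0.22, adjusted p = 0.461).

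All 5 genes of spindle assembly fell. Tpx2, which activates Aurka and promotes microtubule growth near chromosomes, ranged from 5.42 to 12.8 TPM (median 7.81) in HFD males and from 3.0 to 6.39 TPM (median 4.94) with E2 (log2 fold change -0.54, SE 0.24, adjusted p = 0.479). Nusap1, which bundles microtubules, ranged from 5.98 to 18.6 TPM (median 9.25) and from 2.79 to 6.15 TPM (median 4.62) (log2 fold change -0.78, SE 0.22, adjusted p = 0.454). Ckap2, a microtubule-associated protein of the spindle, ranged from 3.61 to 7.41 TPM (median 4.57) and from 1.76 to 2.88 TPM (median 2.5) (log2 fold change -0.85, SE 0.19, adjusted p = 0.389). Of these 3, Ckap2 alone was apart. Its relative Ckap2l (log2 fold change -0.56, SE 0.24, adjusted p = 0.476) and Hmmr, which binds the spindle and hyaluronan (log2 fold change -0.79, SE 0.2, adjusted p = 0.389), also fell.

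All 4 genes of cytokinesis fell. Anln, the gene of anillin, which organises the contractile ring, ranged from 3.55 to 8.85 TPM (median 5.18) in HFD males and from 2.14 to 3.49 TPM (median 3.0) with E2 (log2 fold change -0.76, SE 0.17, adjusted p = 0.389). Prc1, which bundles microtubules of the central spindle, ranged from 7.81 to 15.7 TPM (median 10.6) and from 4.91 to 10.3 TPM (median 6.13) (log2 fold change -0.63, SE 0.17, adjusted p = 0.454). Racgap1, the partner of Kif23 in centralspindlin, ranged from 6.34 to 15.4 TPM (median 8.14) and from 3.63 to 8.33 TPM (median 4.51) (log2 fold change -0.76, SE 0.21, adjusted p = 0.454). Anln was apart in both scales, and Prc1 and Racgap1 overlapped. Ect2, the exchange factor that activates RhoA at the division site, fell as well (log2 fold change -0.57, SE 0.16, adjusted p = 0.454).

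The last 4 genes belong to the chromosomal passenger complex and to mitotic exit, and 2 of them fell. Birc5, the gene of survivin, ranged from 8.36 to 19.4 TPM (median 12.0) in HFD males and from 3.73 to 12.8 TPM (median 8.18) with E2 and did not pass (log2 fold change -0.39, SE 0.25, adjusted p = 0.544, 95% interval -0.87 to 0.09). Cdc20, the activator of the anaphase-promoting complex, ranged from 5.21 to 11.9 TPM (median 6.54) and from 2.29 to 4.56 TPM (median 4.0) (log2 fold change -0.75, SE 0.22, adjusted p = 0.454). Ube2c, the ubiquitin-conjugating enzyme of that complex, ranged from 6.69 to 19.6 TPM (median 10.1) and from 1.37 to 6.52 TPM (median 4.65) (log2 fold change -1.02, SE 0.27, adjusted p = 0.452). Cdc20 and Ube2c fell and were apart in TPM alone. Espl1, the gene of separase, which cuts cohesin, had medians of 1.02 and 0.858 TPM and did not pass (log2 fold change -0.11, SE 0.2, adjusted p = 0.843, 95% interval -0.51 to 0.29).

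**Figure D5:**
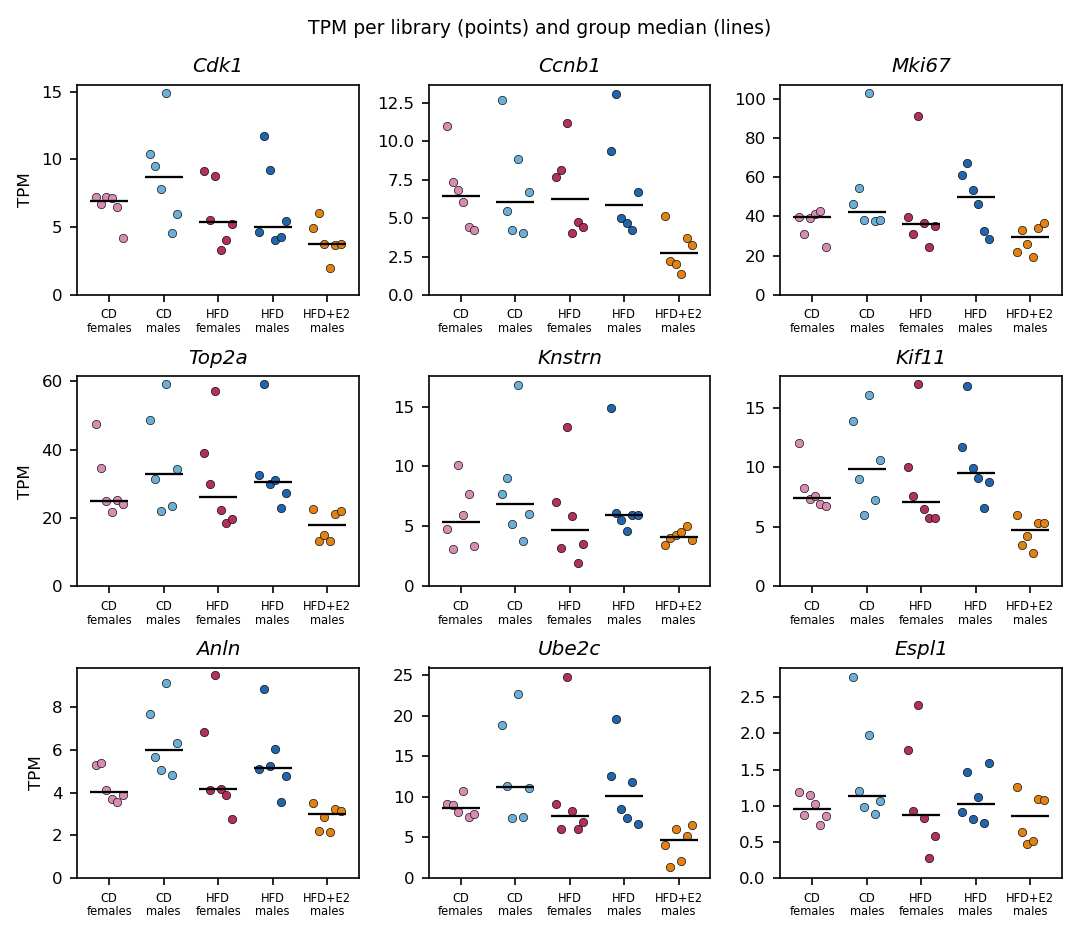
TPM per library of 9 members in the 5 groups (points, 6 per group), with group medians as lines. Kif11, Anln and Top2a are apart between HFD males with and without E2, Cdk1 and Mki67 overlap, and Espl1 has medians of 1.02 and 0.858 TPM.

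Other genes of the cell cycle were taken from lists set by function. Of 54 other mitotic genes tested, 26 were lower with E2 and 0 higher in edgeR (median log2 fold change -0.53). One of them was Depdc1a (log2 fold change -0.98, SE 0.32, adjusted p = 0.455). Of 5 other mitotic kinesins, 4 were lower, among them Kif18a (log2 fold change -0.55, SE 0.19, adjusted p = 0.455) and Kif18b (log2 fold change -0.64, SE 0.24, adjusted p = 0.461), which act at microtubule ends. Of 19 kinesins of transport, 0 were lower and 2 were higher, with a median of 0.15. The 2 were Kif21b (log2 fold change 0.58, SE 0.2, adjusted p = 0.455) and Kif12 (log2 fold change 0.53, SE 0.24, adjusted p = 0.479), named after their values were seen. The mitotic kinesins thus had negative values where most transport kinesins had positive ones, and this difference was not tested.

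Of 29 genes of DNA replication, 4 were lower and 0 higher (median -0.17), among them Rfc3 of the clamp loader (log2 fold change -0.42, SE 0.17, adjusted p = 0.464) and Prim1, the primase (log2 fold change -0.49, SE 0.21, adjusted p = 0.470). Of 16 genes of the anaphase-promoting complex none passed, and the smallest p-values were those of Cdc23 (log2 fold change -0.22, SE 0.1, adjusted p = 0.485) and Anapc5 (log2 fold change -0.19, SE 0.09, adjusted p = 0.499). These are core subunits of the complex whose activator Cdc20 and enzyme Ube2c fell. Of 22 genes of the complexes that control mitotic genes, 2 were lower and 1 was higher. They were E2f5 (log2 fold change -0.48, SE 0.17, adjusted p = 0.455), Foxm1, the activator of late cell cycle genes, named after its value was seen (log2 fold change -0.56, SE 0.21, adjusted p = 0.461), and Lin37, a MuvB subunit (log2 fold change 0.6, SE 0.19, adjusted p = 0.454). Of 21 regulators of cyclin-dependent kinases, 3 were lower and 0 higher (median 0.01), and the cyclin D genes Ccnd1 and Ccnd2 had log2 fold changes of 0.1 and 0.09. Also named after their values were seen, the remaining genes of these counts were the mitotic kinesins Kif20b (-0.51) and Kif22 (-0.57), the replication genes Cdc45 (-0.64) and Rrm2 (-0.7), and the regulators Wee1 (-0.51), Chek1 (-0.47) and Cdkn3 (-0.55), each with its log2 fold change.

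Cell type markers were followed in the same libraries. The epithelial markers had sums from 4752 to 5954 TPM (median 5432) in HFD males and from 4533 to 6522 TPM (median 4815) with E2, and none of 11 passed, with Elf3 (log2 fold change 0.37, SE 0.11, adjusted p = 0.454) and Cldn7 (log2 fold change 0.31, SE 0.21, adjusted p = 0.578) nearest. From the counts, 1 of the 11 lay below 0, and the median log2 fold change was 0.092. In log2 TPM (pseudocount 0.1) the median of all genes was itself -0.16 with E2, so the TPM sums are relative to that. Markers of the crypt base, where the stem cells lie, had sums from 82.1 to 108 TPM (median 101) and from 78.9 to 109 TPM (median 94.4). None of 12 passed, including Lgr5 (log2 fold change -0.23, SE 0.18, adjusted p = 0.628). Of the 12, 4 lay below 0, and the median log2 fold change was 0.038. Of 10 markers of surface colonocytes, 1 was lower and 2 were higher, namely Slc26a3 (log2 fold change -0.57), Car4 (0.45), both named after their values were seen, and Saa1 (log2 fold change 0.53, SE 0.2, adjusted p = 0.461). These lists of the epithelium showed no fall like that of the mitosis genes, and their part in it was not tested beyond the covariate above.

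B cells, which divide in lymphoid follicles, varied widely within both groups. Their 12 markers had sums from 0.153 to 76.2 TPM (median 16.3) in HFD males and from 9.61 to 61.1 TPM (median 20.4) with E2, and none of 11 passed, with Pax5 (log2 fold change 0.78, SE 0.67, adjusted p = 0.653) and Cxcr5 (log2 fold change 0.66, SE 0.62, adjusted p = 0.676) nearest. Of 3 germinal centre markers tested, Bcl6 was higher (log2 fold change 0.42, SE 0.17, adjusted p = 0.461) and Mybl1 did not pass (log2 fold change -0.07, SE 0.21, adjusted p = 0.908), and of 3 T cell markers none passed, including Cd2 (log2 fold change 0.34, SE 0.38, adjusted p = 0.729) and Cd4 (log2 fold change 0.13, SE 0.38, adjusted p = 0.905). Of 19 squamous genes only 3 were tested, and Krt10 (log2 fold change -4.72, SE 1.52, adjusted p = 0.455) and Krt14 (log2 fold change -2.92, SE 1.21, adjusted p = 0.476) were lower with E2. The squamous sum was high only in replicates 2 and 4 of the HFD males (714 and 128 TPM). Its medians were 4.9 TPM in HFD males and 4.6 TPM with E2, and the E2 group held none of the libraries with squamous epithelium genes. Of 12 smooth muscle genes, 0 were lower and 1 was higher, Lmod1 (log2 fold change 0.47, named after its value was seen). With the mean level of the B cell, squamous or smooth muscle markers as a covariate, 32, 26 and 32 of the 39 members were lower with E2, when 3.18%, 1.72% and 2.15% of all genes were. The median log2 fold changes of the members were then -0.79, -0.49 and -0.63.

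HFD males with E2 were also compared with CD males given vehicle, which differ from them in diet and in treatment. This comparison shares its E2 libraries with the previous one, so that the 2 are not independent. At the threshold of the study, 38 of the 39 members were lower and 0 higher, against 3.24% of all 15109 genes lower, and the median of the members was -0.89. Tpx2 missed the threshold (log2 fold change -0.7, SE 0.33, adjusted p = 0.467), with an unadjusted p just over 0.05. With the adjusted p of edgeR, 6 members passed, against 0.212% of all genes. DESeq2 called 27 members with its adjusted p. By that rule 0.328% of the 27473 genes with a DESeq2 p-value were lower, a share that can be too small for the reason given above. In log2 CPM, 13 members were apart between the groups, as were 0.384% of all genes, and in TPM 11 were, as were 0.543%.

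The 6 members with an adjusted p under 0.05 act at different steps. Anln, of the contractile ring, ranged from 4.82 to 9.14 TPM (median 5.98) in CD males (log2 fold change -1.0, SE 0.14, adjusted p = 0.00416). Ckap2, of the spindle, ranged from 3.95 to 8.5 TPM (median 5.65) (log2 fold change -1.17, SE 0.19, adjusted p = 0.0134). Both were apart from the E2 libraries in log2 CPM and in TPM. The motor gene Kif11 ranged from 5.98 to 16.0 TPM (median 9.81) (log2 fold change -1.05, SE 0.2, adjusted p = 0.0431), Racgap1 from 6.87 to 14.6 TPM (median 9.49) (log2 fold change -1.03, SE 0.2, adjusted p = 0.0431) and Knstrn from 3.81 to 16.8 TPM (median 6.86) (log2 fold change -1.03, SE 0.2, adjusted p = 0.0431). These 3 were apart in log2 CPM and overlapped in TPM. Ccnb1 ranged from 4.05 to 12.7 TPM (median 6.07) (log2 fold change -1.35, SE 0.27, adjusted p = 0.0481) and overlapped in both scales. Side by side, the log2 fold changes with E2 against vehicle and against CD were -0.76 and -1.0 for Anln, -1.03 and -1.05 for Kif11, and -0.11 and -0.53 for Espl1.

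Leaving out 1 library moved the number with an adjusted p under 0.05 between 1 and 14. It was 1 without replicate 4 of the CD males, 2 without their replicate 1, 2 or 6, 14 without replicate 3 and 11 without replicate 5. It was 2 without replicate 3 or 4 of the E2 group and 3 without replicate 1, 2 or 5. With no library left out, 13 of all 15109 genes were lower by this rule. Without replicates 4, 1, 2, 6, 3 and 5 of the CD males, 3, 10, 4, 8, 21 and 19 of all genes were. Without replicates 3, 4, 1, 2 and 5 of the E2 group, 3, 8, 17, 9 and 5 were. Between 15186 and 15315 genes were tested in these settings. Over 25 settings Anln passed this threshold in 23 and Ckap2 in 22, and each of the other members in at most 13. Outside the members, Depdc1a (log2 fold change -1.5, SE 0.3, adjusted p = 0.0449) and Ccnd2 (log2 fold change -0.47, SE 0.08, adjusted p = 0.0157) passed it.

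HFD was compared with CD in males given vehicle. In edgeR, 0 of the 39 members passed the threshold of the study, and 0 had an unadjusted p under 0.05, as in DESeq2. Of all 14991 genes, 1.64% were lower, 1.25% higher and 0% past the adjusted threshold. The log2 fold changes ranged from -0.54 (Plk1) to 0.08 (Ttk), with 36 of 39 below 0 and a median of -0.18. Without replicate 4 of the CD males, 23 of 39 lay below 0 and the median was -0.012. The standard errors lay between 0.17 and 0.32, so that differences of the size seen for single members could be missed. Without the 2 HFD males with squamous epithelium genes, 5 members were lower with HFD (Plk1, Kif14, Ckap2, Anln and Racgap1), when 2.35% of all genes were lower, and the median was -0.39. Without replicate 2 of the HFD males, 5 members were lower, when 1.6% of all genes were. Without replicate 3 or 5 of the CD males 2 members were lower, when 1.8% and 1.31% of all genes were.

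In females, 0 of the 39 members passed with HFD against CD in edgeR, and 0 had an unadjusted p under 0.05 in edgeR or DESeq2. Of all 15061 genes, 0.724% were lower, 2.95% higher and 0.0199% past the adjusted threshold. The log2 fold changes ranged from -0.16 (Kif23) to 0.31 (Aurkb), with 29 of 39 above 0 and a median of 0.056. This direction turned without replicate 3 of the HFD females, when the median was -0.3 and 5 members were lower (Aurka, Plk1, Kif23, Nusap1 and Prc1), as were 0.733% of all genes. It turned also without the 4 HFD females with squamous epithelium genes, when the median was -0.33 and Aurka, Plk1, Kif23, Anln and Ect2 were lower, as were 1.16% of all genes, with 2 HFD females left. Without replicate 6 of the CD females the median was -0.032. With the mean level of the squamous markers as a covariate it was -0.47, with 39 of 39 below 0.

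Females were compared with males on each diet. On CD, 6 members were lower in females (Plk1, Knstrn, Kif14, Ckap2, Anln and Racgap1), against 6.21% of all 14922 genes. All 39 log2 fold changes lay below 0, with a median of -0.36. With the adjusted p of edgeR, 0 members passed, against 2.74% of all genes. An unadjusted p under 0.05 was found for 6 members and for 2207 of the 14922 genes. DESeq2 gave 7 members with an unadjusted p under 0.05 and 1 (Anln) with its adjusted p. By that rule 1.74% of the 27677 genes with a DESeq2 p-value were lower, a share that can again be too small. The smallest p was that of Anln (log2 fold change -0.44, SE 0.13, adjusted p = 0.0775), followed by Racgap1 (log2 fold change -0.52, SE 0.2, adjusted p = 0.225). The count was 0 without replicate 4 of the CD males, 15 without replicate 3 and 13 without replicate 5, 2 and 3 without replicates 1 and 2, and 1 when replicate 6 of the CD females was left out or 2 when their replicate 2 or 3 was. In these settings between 5.61% and 7.07% of all genes were lower, and the median of the members was nearest 0, at -0.15, without replicate 4 of the CD males. The 12 smooth muscle genes were also all lower in CD females, with 7 past the adjusted threshold, such as Actg2 (log2 fold change -0.95, SE 0.14, adjusted p = 0.00221). With their mean level as a covariate 6 members were lower, as were 6.88% of all genes, with a median of -0.43 and 37 of 39 below 0. Of 11 B cell markers tested, 5 were higher in CD females and 0 lower, with a median of 1.32. So were 2 of 3 T cell markers higher. Of 10 surface colonocyte markers, 3 were lower and 1 was higher, that 1 past the adjusted threshold. Kif26b, a kinesin of the transport list (log2 fold change -1.26, SE 0.22, adjusted p = 0.00536), and Ccnd1 (log2 fold change -0.43, SE 0.11, adjusted p = 0.0484) were lower as well. Among 12 crypt base markers, Lgr5 (log2 fold change 0.53, SE 0.14, adjusted p = 0.0472) was higher and 1 was lower. Of these markers 7 lay below 0, with a median of -0.066.

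On HFD, 0 members differed between females and males in edgeR, and 0 had an unadjusted p under 0.05 in edgeR or DESeq2. Of all 15179 genes, 1.08% were lower in females, 2.01% higher and 0.0988% past the adjusted threshold. The median of the members was -0.071, with 29 of 39 below 0, and its sign rested on single libraries. It was 0.084 with 6 of 39 below 0 without replicate 2 of the HFD males, and 0.028 without replicate 5 of the HFD females. Without replicate 3 of the HFD females it was -0.43, and 14 members were lower in females, when 1.21% of all genes were. The difference between the HFD effects of females and males was tested as an interaction in the 24 libraries given vehicle. In edgeR, 0 members passed and 0 had an unadjusted p under 0.05, as in DESeq2, while 1.47% of all 15800 genes were lower, 3.71% higher and 0% past the adjusted threshold. The values ranged from -0.07 (Bub1) to 0.56 (Plk1), with a median of 0.26, which was 0.07 when replicate 4 of the CD males was left out and -0.089 when replicate 3 of the HFD females was. Without replicate 2 of the HFD males, Ckap2 alone passed.

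The levels in the remaining groups show how far single mice set these results. Cdk1 ranged from 4.54 to 14.9 TPM (median 8.68) in CD males, from 4.22 to 7.22 TPM (median 6.94) in CD females and from 3.32 to 9.11 TPM (median 5.41) in HFD females. Ccnb1 ranged from 4.05 to 12.7 TPM (median 6.07) in CD males, from 4.25 to 11.0 TPM (median 6.45) in CD females and from 4.02 to 11.2 TPM (median 6.24) in HFD females. Ccna2 ranged from 11.5 to 35.6 TPM (median 16.7) in CD males, from 8.22 to 19.5 TPM (median 12.9) in CD females and from 8.92 to 29.0 TPM (median 12.8) in HFD females. The CD males spread the most for Cdk1 and Ccna2, and all 3 genes overlapped between the groups. Mki67 ranged from 37.9 to 103 TPM (median 42.3) in CD males, from 24.4 to 42.9 TPM (median 39.7) in CD females and from 24.3 to 91.3 TPM (median 36.1) in HFD females. Top2a ranged from 22.0 to 59.1 TPM (median 32.8) in CD males, from 21.8 to 47.5 TPM (median 25.1) in CD females and from 18.6 to 57.2 TPM (median 26.2) in HFD females. For both, replicate 4 of the CD males and replicate 3 of the HFD females were the highest of their groups.

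The kinases showed the same mice at the top. Aurka ranged from 2.67 to 10.6 TPM (median 6.11) in CD males, from 3.91 to 6.33 TPM (median 4.57) in CD females and from 3.19 to 9.18 TPM (median 3.92) in HFD females. Aurkb ranged from 3.18 to 11.5 TPM (median 5.54) in CD males, from 2.8 to 6.11 TPM (median 4.26) in CD females and from 3.18 to 10.4 TPM (median 4.11) in HFD females. Plk1 ranged from 2.12 to 8.02 TPM (median 4.14) in CD males, from 1.64 to 3.1 TPM (median 2.71) in CD females and from 1.22 to 7.33 TPM (median 2.0) in HFD females. In each, replicate 4 of the CD males and replicate 3 of the HFD females were highest. Melk ranged from 3.84 to 11.4 TPM (median 5.31) in CD males, from 2.57 to 6.52 TPM (median 4.33) in CD females and from 3.0 to 10.5 TPM (median 4.76) in HFD females. Ttk ranged from 2.01 to 6.64 TPM (median 2.74) in CD males, from 1.34 to 2.96 TPM (median 2.82) in CD females and from 1.62 to 5.59 TPM (median 2.25) in HFD females. The 3 groups overlapped for all 5 kinases.

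Checkpoint and kinetochore genes overlapped likewise. Bub1 ranged from 2.06 to 8.1 TPM (median 5.2) in CD males, from 2.31 to 7.63 TPM (median 4.35) in CD females and from 0.836 to 7.15 TPM (median 2.67) in HFD females. Bub1b ranged from 6.46 to 16.4 TPM (median 8.86) in CD males, from 6.21 to 8.6 TPM (median 6.81) in CD females and from 2.39 to 14.7 TPM (median 6.29) in HFD females. Cenpe ranged from 4.92 to 15.7 TPM (median 7.53) in CD males, from 4.83 to 7.63 TPM (median 6.48) in CD females and from 4.53 to 11.5 TPM (median 6.08) in HFD females. Replicate 5 of the HFD females was the lowest of its group for these 3. Cenpf ranged from 6.77 to 13.6 TPM (median 9.44) in CD males, from 4.3 to 7.97 TPM (median 7.31) in CD females and from 3.73 to 16.8 TPM (median 6.1) in HFD females. Cenpa ranged from 3.34 to 15.3 TPM (median 4.39) in CD males, from 3.85 to 7.65 TPM (median 4.8) in CD females and from 2.18 to 9.95 TPM (median 5.24) in HFD females. Knstrn ranged from 3.81 to 16.8 TPM (median 6.86) in CD males, from 3.08 to 10.1 TPM (median 5.39) in CD females and from 1.98 to 13.3 TPM (median 4.74) in HFD females. For Cenpa the highest CD male was replicate 1, not replicate 4.

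The same held for the motors. Kif11 ranged from 5.98 to 16.0 TPM (median 9.81) in CD males, from 6.71 to 12.0 TPM (median 7.45) in CD females and from 5.75 to 16.9 TPM (median 7.05) in HFD females. Kif20a ranged from 4.97 to 12.5 TPM (median 6.66) in CD males, from 3.3 to 7.09 TPM (median 5.83) in CD females and from 3.41 to 11.4 TPM (median 5.23) in HFD females. Kif23 ranged from 4.83 to 12.8 TPM (median 8.08) in CD males, from 5.52 to 8.34 TPM (median 6.98) in CD females and from 4.39 to 12.9 TPM (median 5.27) in HFD females. Among these 3 groups, the HFD females had the lowest median of Kif11, Kif20a and Kif23. Kif4 ranged from 3.32 to 8.88 TPM (median 4.16) in CD males, from 2.65 to 5.97 TPM (median 3.5) in CD females and from 2.05 to 7.91 TPM (median 2.98) in HFD females. Tpx2 ranged from 4.72 to 19.3 TPM (median 7.57) in CD males, from 4.16 to 8.2 TPM (median 6.04) in CD females and from 5.01 to 13.2 TPM (median 6.06) in HFD females. Nusap1 ranged from 5.85 to 17.9 TPM (median 8.43) in CD males, from 6.0 to 11.6 TPM (median 7.5) in CD females and from 4.37 to 18.4 TPM (median 6.88) in HFD females. The spindle genes Tpx2 and Nusap1 were highest in replicate 4 of the CD males and in replicate 3 of the HFD females.

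The genes of division and exit closed the series. Ckap2 ranged from 3.95 to 8.5 TPM (median 5.65) in CD males, from 3.02 to 5.7 TPM (median 4.08) in CD females and from 2.41 to 9.61 TPM (median 4.4) in HFD females. Anln ranged from 4.82 to 9.14 TPM (median 5.98) in CD males, from 3.57 to 5.38 TPM (median 4.02) in CD females and from 2.77 to 9.51 TPM (median 4.16) in HFD females. Racgap1 ranged from 6.87 to 14.6 TPM (median 9.49) in CD males, from 4.13 to 10.1 TPM (median 5.93) in CD females and from 4.55 to 16.8 TPM (median 6.39) in HFD females. These 3 are among the 6 that were lower in CD females than in CD males, and their ranges overlapped all the same. Prc1 ranged from 7.57 to 23.2 TPM (median 11.5) in CD males, from 8.39 to 13.5 TPM (median 10.1) in CD females and from 7.72 to 25.3 TPM (median 8.79) in HFD females. Birc5 ranged from 6.97 to 24.5 TPM (median 13.0) in CD males, from 4.38 to 13.0 TPM (median 9.55) in CD females and from 4.65 to 26.6 TPM (median 7.14) in HFD females. Cdc20 ranged from 4.43 to 11.0 TPM (median 8.53) in CD males, from 3.73 to 9.93 TPM (median 6.02) in CD females and from 3.48 to 10.7 TPM (median 6.33) in HFD females. Ube2c ranged from 7.38 to 22.7 TPM (median 11.2) in CD males, from 7.5 to 10.7 TPM (median 8.57) in CD females and from 6.01 to 24.7 TPM (median 7.58) in HFD females. For Prc1, Birc5 and Ube2c, replicate 3 of the HFD females stood far above the other HFD females, which lay below the highest CD female.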

How the data were processed

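Total RNA of colon tissue, distal by the methods of the study, was sequenced as ribosome-depleted, stranded libraries of 30 mice, 6 in each of 5 groups taken from the diet, sex and treatment in the labels. The authors trimmed the reads (Trim Galore), mapped them to GRCm38 (STAR) and counted them per gene (featureCounts), and these raw counts were used as deposited. TPM were calculated by the authors with StringTie and used as deposited for levels, with repeated lines of a gene summed. Versions of these tools and the strand setting of the counting are not given in the sources used here. The counts of each of the 30 libraries correlated best with their own TPM.

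For each comparison, edgeR 4.0.16 (R 4.3.3; filterByExpr, TMM, robust quasi-likelihood F test) was run on the counts of 12 libraries, and for the interaction on the 24 libraries given vehicle. P-values were adjusted over all genes tested by the Benjamini-Hochberg procedure. DESeq2 kept its default for this step, which can leave genes with low mean counts out of the adjustment. Standard errors follow from the F statistic, and log2 CPM used a prior count of 2. Alternatives were DESeq2 1.42.0 and its size factors, 2 filters, all 30 libraries in 1 fit, a replicate block, marker scores as covariates, log2 TPM with limma 3.58.1 (pseudocounts 0.1 and 1), each library left out and, chosen after seeing the data, the libraries with squamous epithelium genes left out. The scripts were tested on simulated data. The depth limits the precision of members with few counts.

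The members and the lists of other genes were chosen with earlier results of these data known. Ranges by group were to be given for 27 members fixed by name and for any other past the adjusted threshold, and genes outside the members were to be those of the lists past the adjusted threshold, or otherwise the 2 with the smallest p with E2. Genes named outside this rule are marked. Promoter sequences are from RefSeq. That the mice were separate animals follows from the methods of the study, which name biological replicates. The p-values set the differences between groups against the spread between these mice.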

Additional observations from a re-analysis of the deposited data

Results flagged for a closer look

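A level was singled out where the highest or lowest mouse of a group of 6 was farther from the next mouse, relative to the range of the group, than Dixon's 95% critical value allows. Of the 195 combinations of member and group, 36 met this in TPM, over 28 members, whereas chance gives about 1 in 20, and the members are not independent of one another.

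Replicate 3 of the HFD females stood above its group for Ccna2 (level 29.0 TPM, next highest 15.8 TPM), Mki67 (level 91.3 TPM, next highest 39.5 TPM), Aurka (level 9.18 TPM, next highest 4.40 TPM), Aurkb (level 10.4 TPM, next highest 5.83 TPM), Plk1 (level 7.33 TPM, next highest 2.82 TPM), Melk (level 10.5 TPM, next highest 5.53 TPM), Cenpf (level 16.8 TPM, next highest 7.47 TPM), Nuf2 (level 7.59 TPM, next highest 4.11 TPM), Kif20a (level 11.4 TPM, next highest 5.58 TPM), Kif23 (level 12.9 TPM, next highest 6.82 TPM), Kif14 (level 6.37 TPM, next highest 2.54 TPM), Nusap1 (level 18.4 TPM, next highest 8.26 TPM), Ckap2l (level 13.3 TPM, next highest 4.91 TPM), Prc1 (level 25.3 TPM, next highest 8.86 TPM), Birc5 (level 26.6 TPM, next highest 7.70 TPM) and Ube2c (level 24.7 TPM, next highest 9.13 TPM). All 16 lay above the other HFD females, and this library held squamous epithelium genes.

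Replicate 4 of the CD males stood above its group for Mki67 (level 103 TPM, next highest 54.4 TPM), Aurkb (level 11.5 TPM, next highest 6.26 TPM), Nuf2 (level 9.43 TPM, next highest 4.98 TPM), Tpx2 (level 19.3 TPM, next highest 9.75 TPM), Ckap2l (level 12.3 TPM, next highest 7.05 TPM) and Prc1 (level 23.2 TPM, next highest 13.1 TPM). Replicate 2 of the HFD males stood above its group for Top2a (level 59.2 TPM, next highest 32.6 TPM), Ttk (level 8.66 TPM, next highest 3.93 TPM), Ndc80 (level 5.84 TPM, next highest 3.58 TPM), Kif15 (level 7.82 TPM, next highest 4.51 TPM), Nusap1 (level 18.6 TPM, next highest 9.75 TPM) and Cdc20 (level 11.9 TPM, next highest 7.23 TPM). The HFD male library held squamous epithelium genes and the CD male library did not. The part of squamous epithelium in these levels was not tested.

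Replicate 1 of the CD females stood above its group for Kif11 (level 12.0 TPM, next highest 8.21 TPM) and Nusap1 (level 11.6 TPM, next highest 7.88 TPM). Replicate 6 of the CD females stood below its group for Cdk1 (level 4.22 TPM, next lowest 6.48 TPM). Replicate 1 of the CD males stood above its group for Cenpa (level 15.3 TPM, next highest 5.96 TPM). Replicate 4 of the HFD males given E2 stood below its group for Melk (level 1.22 TPM, next lowest 2.81 TPM). Replicate 5 of the HFD males given E2 stood above its group for Kif2c (level 4.06 TPM, next highest 2.02 TPM) and Racgap1 (level 8.33 TPM, next highest 5.31 TPM). Replicate 1 of the HFD males stood above its group for Knstrn (level 14.9 TPM, next highest 6.11 TPM).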

How the results depend on the processing

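With E2 against vehicle, the adjusted count of 0 became 9 with DESeq2, 1 without a filter and 1 with the replicate block. By the adjusted rule 33, 2 and 2 of all genes were then lower. The count of 36 became 20 with the epithelial covariate, when 1.11% of all genes were lower. Against CD males, the adjusted count of 6 became 27 with DESeq2, 13 without a filter and 10 with at least 10 counts per library. This count became 25, 15 and 3 with squamous, smooth muscle and epithelial covariates, and 0 on both log2 TPM scales. In the same order, 90, 31, 25, 44, 57, 6, 1 and 4 of all genes were lower by the adjusted rule. For HFD against CD in males, 0 became 1 without a filter, with the replicate block and with B cell or epithelial covariates. This count became 4 with squamous or smooth muscle covariates and 5 without squamous libraries. In the same order, 1.87%, 2.41%, 1.6%, 1.56%, 1.77%, 1.2% and 2.35% of all genes were lower. In females, 0 became 4 and 1 with squamous and epithelial covariates and 5 without squamous libraries. In the same order, 1.06%, 1.98% and 1.16% of all genes were lower. For females against males on CD, 6 became 1 in the fit of all 30 libraries, when 5.57% of all genes were lower. This count became 13, 16 and 2 with B cell, squamous and epithelial covariates, when 3.81%, 5.98% and 6.21% were. The adjusted 0 became 1 with DESeq2 and with the replicate block, when 482 and 527 genes were lower by that rule. On HFD, 0 became 6 with the squamous covariate, when 1.9% of all genes were lower. This count became 1 on both log2 TPM scales, when 1.66% and 1.19% were. The causes were not tested. Leaving out 1 library gave 27 to 37 members for E2 and 34 to 39 (adjusted 1 to 14) against CD males. For HFD in males and in females 0 to 5 passed, for sex on CD and HFD 0 to 15 and 0 to 14, and for the interaction 0 to 1. Adjusted counts were 0 to 0 elsewhere. The share of all genes lower was then 1.99% to 5.22% for E2, 2.69% to 4.21% against CD males and 1.19% to 2.55% for HFD in males. For HFD in females it was 0.568% to 1.26%, and for sex on CD and HFD 5.61% to 7.07% and 0.892% to 1.74%. In HFD against CD females, 39 of 39 members lay below 0 without replicate 3 of the HFD females, from 10 with it, and in females against males on HFD 39, from 29. Members that passed the threshold with the opposite sign were, in the first, Anln with the squamous covariate (-0.51), Plk1 (-0.48) and Prc1 (-0.41) without that replicate (up to 0.17 and 0.11 with other libraries left out) and Plk1 (-0.66) and Anln (-0.43) without squamous libraries, and, in the second, Prc1 (-0.40) without that replicate (up to 0.16 otherwise). Of the other values, medians of the members included, 6451 kept direction and side of the threshold or, for medians, moved within the spread. Another 605 changed direction without passing in either fit or, for medians, moved beyond the spread. With the direction kept, 127 newly passed and 171 no longer passed. The log2 TPM scale shifted the median of all genes to -0.16 (pseudocount 0.1) and -0.12 (1) for E2, so its changes are relative to that. Libraries of equal replicate number correlated over r = 0.1 in 1 to 5 of 6 pairs. Unequal numbers were not set beside them, so this cannot decide whether the mice were paired. The labels name no pairs, so the replicate block stands only here. Depth left the lowest member at 21 counts in a library.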
